A study of Mus musculus with 24 samples.

Results

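The 41 genes described here encode antiviral effector proteins of the type I interferon response. They were taken by name from the deposited table of normalised counts, which lists 12767 genes, and all 41 were listed and had a mean high enough to be tested. RNA sequencing measured transcripts in CD11c+ cells that had been purified with magnetic beads from the mesenteric lymph nodes (MLN) of female C57BL/6 mice aged 6 to 8 weeks. Every mouse carried an MC38 colon tumour, from 1000000 cells injected under the skin. The 12 wild-type libraries and the 12 libraries labelled Myd88 knockout each fell into 4 treatments of 3 libraries: IgG control antibody, anti-PD-1 antibody, the live oral bacterium LGG (Lactobacillus rhamnosus GG), and anti-PD-1 with LGG, called the combination below. Antibody was given at 200 ug per mouse and both agents 2 times a week for 2 to 3 weeks, starting 7 to 10 days after tumour injection at an average tumour size of 100 mm3. The labels record no antibody in mice that received LGG without anti-PD-1, so a contrast with IgG sets both LGG and the control antibody apart. Neither the number of animals behind a library nor whether the replicates came from separate animals is stated, so the p-values measure the spread between these libraries, which may be technical.

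Type I interferons bind a receptor made of Ifnar1 and Ifnar2, which activates the kinases Jak1 and Tyk2. These activate a complex of transcription factors, with Stat2 and Irf9 among its parts, that binds the interferon-stimulated response element in the promoters of effector genes. The effector proteins bind or cut foreign RNA, block viral entry and budding, edit RNA, tag proteins, and in a few cases damp the interferon receptor itself. Myd88 is the adaptor of most Toll-like receptors and of the interleukin-1 receptor family, while nucleic acid sensors such as cGAS and RIG-I, and Tlr3, signal to interferon genes through other adaptors.

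Promoter sequences are shown for 10 of the genes because they hold the core of the element through which the interferon response is known to act. Sequence was available in the RefSeq table (build GRCm38.p6) for 32 of the 41 genes, from 250 bases before to 50 bases after each start site. The core, GAAA then any 2 bases then GAAA, searched on both strands, was found in 14 of the 32, or 43.8%. Of the 27025 genes with a window in that table, 3.99% hold it. Neighbouring matches can share a GAAA. In the stretches below, all written 5′ to 3′ in the direction of the gene and all ahead of the start site, capitals mark the core, which reads TTTC, any 2 bases, TTTC on the opposite strand.

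Isg15 (chr4:156200855-156200916, minus strand): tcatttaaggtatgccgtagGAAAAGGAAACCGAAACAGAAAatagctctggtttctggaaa
Ifi205 (chr1:174031860-174031909, minus strand): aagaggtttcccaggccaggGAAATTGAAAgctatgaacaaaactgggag
Bst2 (chr8:71537567-71537622, minus strand): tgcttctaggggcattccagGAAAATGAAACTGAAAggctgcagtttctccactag
Ifit1 (chr19:34640765-34640833, plus strand): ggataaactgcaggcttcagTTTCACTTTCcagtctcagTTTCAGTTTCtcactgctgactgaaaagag
Ifit3 (chr19:34583353-34583436, plus strand): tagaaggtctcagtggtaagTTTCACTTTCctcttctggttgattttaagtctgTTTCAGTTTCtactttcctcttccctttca
Ifit3b (chr19:34607749-34607832, plus strand): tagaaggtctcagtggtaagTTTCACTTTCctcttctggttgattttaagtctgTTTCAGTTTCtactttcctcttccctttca
Rsad2 (chr12:26456543-26456592, minus strand): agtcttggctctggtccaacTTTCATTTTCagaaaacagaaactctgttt
Oas1a (chr5:120907526-120907565, minus strand): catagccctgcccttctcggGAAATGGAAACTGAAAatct
Oas3 (chr5:120777705-120777754, minus strand): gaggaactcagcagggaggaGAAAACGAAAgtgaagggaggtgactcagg
Ddx60 (chr8:61928014-61928086, plus strand): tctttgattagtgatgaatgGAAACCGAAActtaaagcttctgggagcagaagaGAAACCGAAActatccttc

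Isg15 holds 3 overlapping cores in a row, the first at position -78 from its start, and Ifit3 and Ifit3b are identical over all 84 bases shown. The core was also found in Eif2ak2, Slfn5, Slfn8 and Trim30a. Another 2 patterns were searched on both strands. An NF-kB-like core, GGGA then any 2 bases then TTCC, was present in Ifit2 and Isg20 of the 32 (1.63% of the table), and the gamma-activated site core, TTCNNNGAA, was present in 7 of the 32 (21.9%, against 9.55% of the table). In Bst2 the latter overlaps the first interferon core. A match describes letters in this window and shows no binding.

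Depth ran from 24531528 to 49272593 reads assigned to listed genes per library, and it differed between groups, with 24531528 to 29434944 in wild-type IgG and 27762574 to 49272593 in knockout IgG. Myd88 itself was at 1723 to 2232 normalised counts in wild-type libraries and at 697 to 1837 in those labelled knockout, so the ranges overlap and reads remain at the targeted gene. The Y-linked gene Ddx3y was at 0 to 4.50 in all wild-type libraries and at 1241 to 2136 in all libraries labelled knockout, whereas the labels describe female mice. Genotype therefore cannot be told apart from whatever else separates these animals. Of the dendritic cell markers, Flt3 averaged 110.1 in wild-type IgG and 8.09 in knockout IgG, while Itgax (CD11c) averaged 23090.5 and 36783. These markers moved with LGG as well: Flt3 averaged 639.7 in wild-type LGG and 50.4 in knockout LGG, and Itgax 9828 and 45009. Of 5 dendritic cell markers, 2 were called higher and 1 lower with LGG in wild type, and 3 higher and none lower in knockout. The summed level of 8 macrophage genes was 73144 to 83248 in wild-type IgG libraries, 10027 to 10402 with LGG, 52986 to 55874 in knockout IgG and 33083 to 42617 in knockout LGG. Of these 8, 7 were called lower with LGG in wild type and 3 in knockout, and none higher in either. The summed level of 10 T cell genes was 1038 to 1118 in knockout IgG and 2942 to 3806 in knockout LGG, against 7261 to 8110 and 10053 to 11274 in wild type. Of these 10, 4 were called higher and 2 lower with LGG in wild type (Cd5 and Cd28 fell), and all 10 higher in knockout. Over 6 listed NK cell genes the sums were 2503 to 2956 and 7835 to 13154 in knockout, against 24506 to 26465 and 39987 to 46847. Gzma made up most of that sum, with a mean of 23948 in wild-type IgG. Of the 6, 4 were called higher and 2 lower with LGG in wild type (Klrb1c and Eomes fell), and all 6 higher in knockout. In bulk libraries a change in the mixture of cells and a change in RNA per cell cannot be told apart, and the part that these shifts in marker genes have in the results below was not tested. The plasmacytoid dendritic cell genes Siglech, Klk1 and Cd300c are not among the genes listed. The 5 listed genes of that type summed to 1589 to 1724 in wild-type IgG and 2520 to 2611 with LGG, and to 2194 to 2513 and 1689 to 2365 in the libraries labelled knockout. Cox6a2 carried the knockout sum, with a mean of 1924 in knockout IgG and 1082 in knockout LGG, and gene by gene the order was another. In knockout IgG 4 of the 5 were called lower than in wild type and 1 higher. With LGG 4 were called higher and 1 lower in knockout, and 2 higher and none lower in wild type. These counts of called marker genes stand beside the shares of all genes. In knockout IgG 20% of all genes were called lower than in wild type and 19.1% higher. With LGG 27.4% of all genes were called higher and 28.2% lower in wild type, and 18.1% and 14.2% in knockout.

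The libraries labelled knockout anti-PD-1 replicates 2 and 3 and knockout LGG replicate 2 stood apart from their groups in a way that followed gene length. In knockout LGG replicate 2, 18 of the 20 effector genes with exons shorter than the median of 3123 bases lay above the mean of replicates 1 and 3, by a median of 0.29 on the log2 scale. None of the 21 others did, and their median was -0.46. Spearman's rho between length and this deviation was -0.89 over the 41 genes and -0.63 over 12741 genes. Knockout anti-PD-1 replicate 2 leaned the other way against the mean of the knockout IgG libraries (rho 0.80 over the 41 genes) and replicate 3 leaned the same way as knockout LGG replicate 2 (rho -0.59). The trend was not confined to these libraries: knockout anti-PD-1 replicate 1 had a rho of -0.59 against the same mean, and knockout LGG replicate 1 of -0.82 against replicate 3. This rho was not computed for wild-type libraries, so they cannot be taken as free of the trend. The main counts of called effector genes in comparisons that use the 3 libraries that stand apart are given with and without at least 1 of them. Also given are the effector genes whose response to LGG, or its interaction, changed its call without knockout LGG replicate 2.

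**Figure D1:**
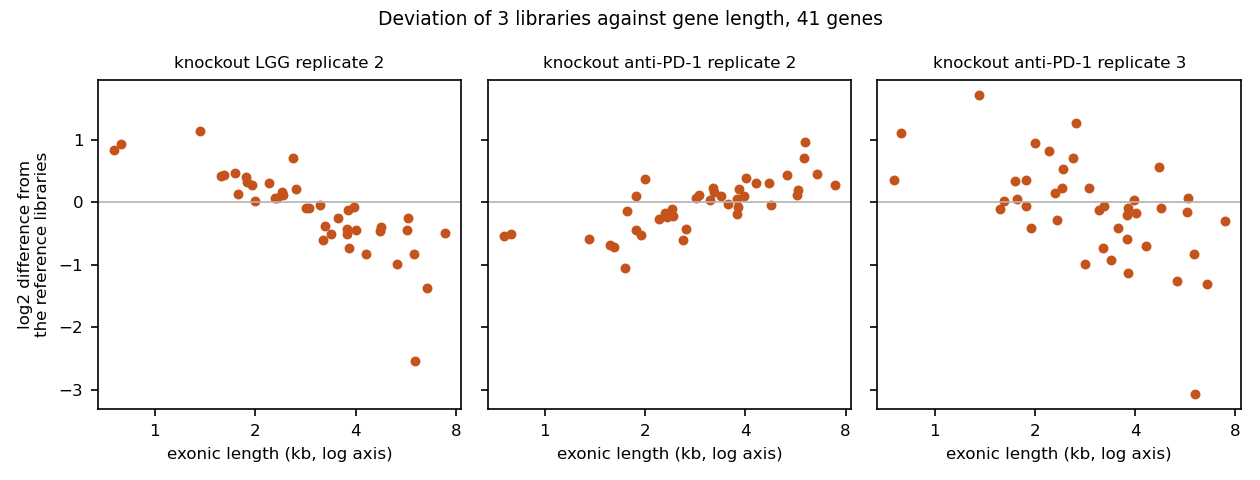
Deviation of each of the 41 effector genes (log2, vertical axis) against its exonic length in kilobases (log axis) in the 3 libraries that stand apart; the reference is knockout LGG replicates 1 and 3 for the left panel and the 3 knockout IgG libraries for the others. Short genes lie high and long genes low in the left panel, with a Spearman's rho of -0.89, and the order is turned round in the middle panel, with a rho of 0.80.

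LGG raised the effector genes as a group in both genotypes. In wild-type cells 40 of the 41 were higher with LGG than with IgG and none was lower, with a median log2 difference of 1.80. Differences are on the log2(count + 1) scale, and called means an adjusted p below 0.05 over all genes tested. The exception was Samd9l (0.48 ± 0.29 SE, adjusted p = 0.176, limma). Of all 12749 genes tested, 27.4% were called higher in this comparison, with a median of 0.00 over all genes. In the libraries labelled knockout 39 were higher and none lower, with a median of 1.36, where 18.1% of all genes were called higher. Ifi35 and Eif2ak2 did not pass there. Without knockout LGG replicate 2 the count stayed at 39, but Eif2ak2 passed and Bst2 did not. The 41 genes were chosen with earlier results of these data known, so the direction is not independent evidence.

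Set against the mean of wild-type IgG, the median shift over the 41 genes was 1.70 to 1.82 in the wild-type LGG libraries and 2.07 to 2.09 in the wild-type combination libraries. It was -0.59 to -0.50 in knockout IgG, 0.84 to 0.88 in knockout LGG and 0.67 to 0.75 in the knockout combination. None of these ranges overlaps another. The knockout libraries thus began lower and ended lower, and with LGG they stood above wild-type IgG but below wild-type LGG.

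**Figure D2:**
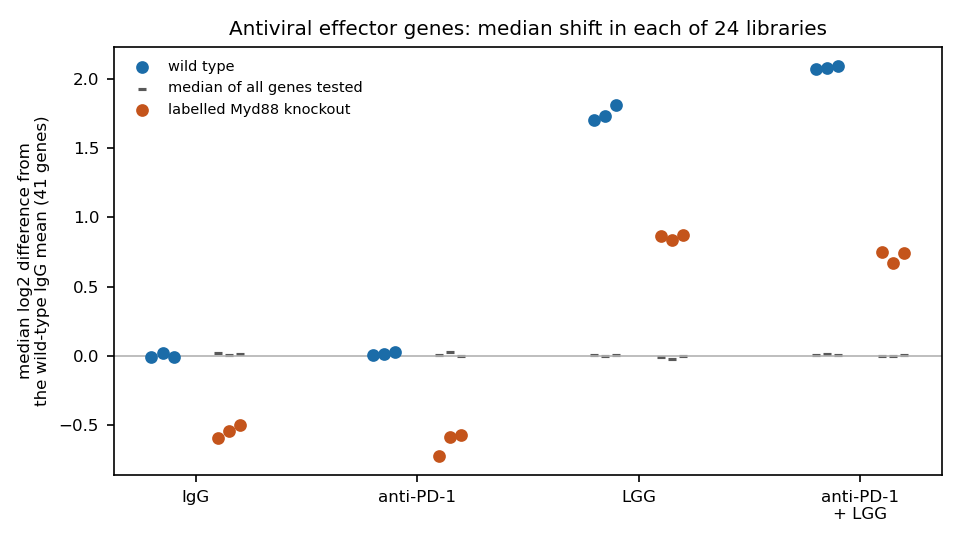
Median log2 difference of the 41 effector genes from the wild-type IgG mean (vertical axis) in each of the 24 libraries, by treatment and genotype; short grey bars give the same median over all genes tested. Wild-type libraries with LGG sit between 1.70 and 2.09, libraries labelled knockout with LGG between 0.67 and 0.88, and the grey bars stay near 0.

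The response to LGG was called smaller in knockout for 20 of the 41 genes and larger for 4 (Ifit2, Oas2, Rtp4 and Lgals3bp), by the interaction of genotype and treatment in limma. Among all genes, 15.4% had an interaction called in the negative direction and 19.5% in the positive direction. For the 40 genes that rose in wild type, the knockout log2 difference was 29.5% to 175% of the wild-type one, with a median of 69.6%. This percentage is called the share kept below. It was under 60% for 16 genes, from 60% to 90% for 12 and 90% or more for 12. Without knockout LGG replicate 2 the median was 71.4% and the interaction was called negative for 22 genes and positive for 4, against 18.3% and 22.8% of all genes. The share kept then moved by over 1.5 times for Ifi35, Bst2 and Eif2ak2, and by less for the other 37. Among these 37, Slfn5 went from 106% to 151%, Ddx60 from 91.0% to 121% and Adar from 101% to 129.5%. With the 3 libraries that stand apart left out, 23 were called negative and 8 positive, against 28.7% and 34.1% of all genes. On the linear scale the knockout gained fewer counts: the median gain was 36.7% of the wild-type gain.

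**Figure D3:**
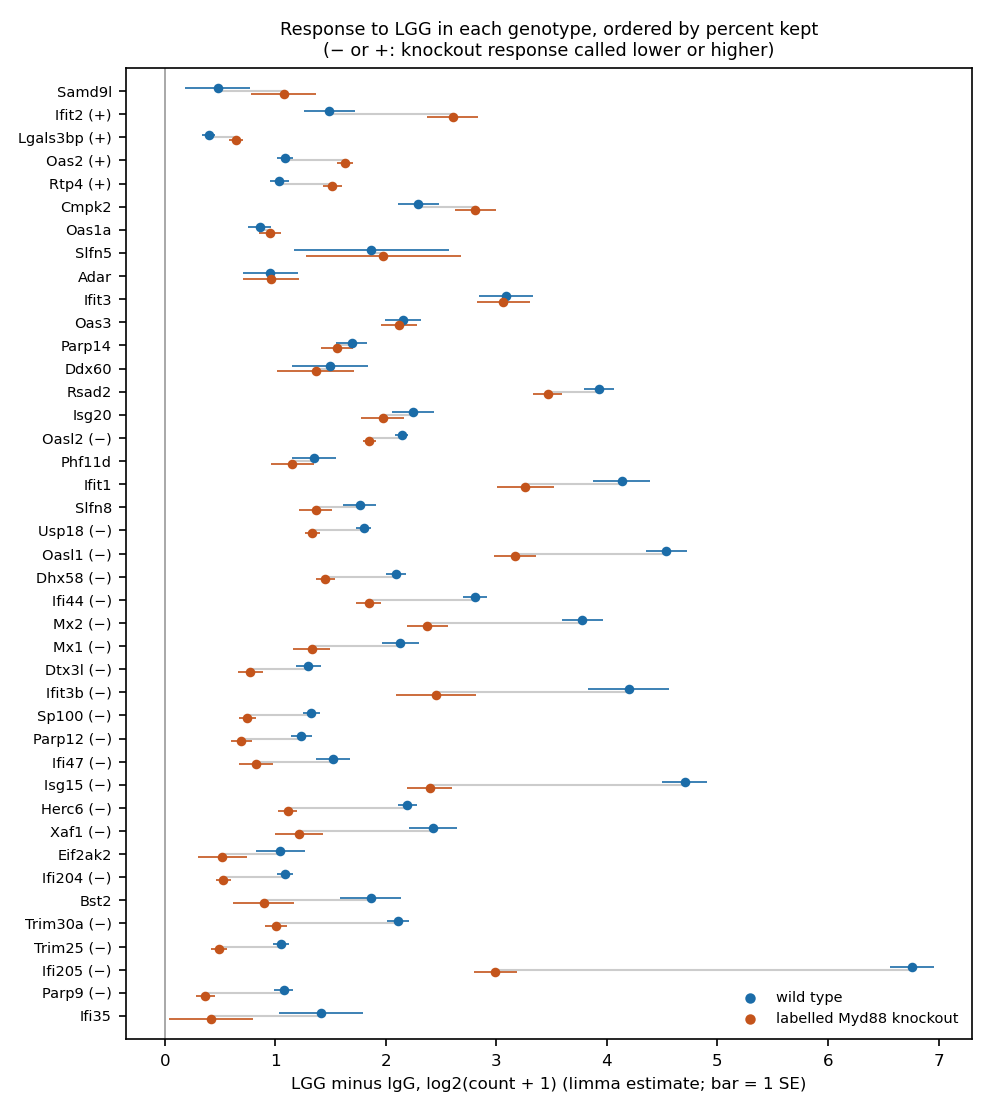
LGG minus IgG on the log2(count + 1) scale (horizontal axis) for each of the 41 genes in wild type and in libraries labelled knockout, as limma estimates with bars of 1 SE (3 libraries per group), ordered by the share kept from lowest at the bottom. Signs beside a name mark a called interaction, negative for 20 genes and positive for 4; Ifi205 and Isg15 show the widest gaps.

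The ISG15 system attaches a small ubiquitin-like protein to other proteins. Isg15 encodes that modifier, and it was at 495, 531 and 537 normalised counts in wild-type IgG and at 14637, 14557 and 11812 with LGG. In libraries labelled knockout it was at 452, 438 and 369 with IgG and at 1998, 3254 and 1654 with LGG. The genotypes were close without LGG and far apart with it. Isg15 rose 26.1-fold in wild type (log2 4.70 ± 0.20 SE) and 5.27-fold in knockout, and the responses differed by -2.31 ± 0.29 (adjusted p = 2.93e-06, limma).

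Usp18 removes Isg15 from proteins and also dampens the interferon receptor. It was at 1238, 1272 and 1313 in wild-type IgG and 4459.7, 4485 and 4366 with LGG, and at 1089, 1088 and 1028 rising to 2673, 2857 and 2567 in knockout. No library of one treatment overlapped the other. The response of 1.80 ± 0.07 in wild type and 1.34 ± 0.07 in knockout differed by -0.46 ± 0.10 (adjusted p = 9.09e-04, limma). Trim25, a ubiquitin and ISG15 ligase that assists RIG-I, was the one gene of this system above wild type in knockout IgG: 5397, 5387 and 5851 against 4177, 4239.8 and 4124. With LGG it was at 8533, 8622 and 8859.9 in wild type and at 7839, 6904 and 8727 in knockout, where the ranges overlap. Its share kept was 46.6%, and the interaction was -0.56 ± 0.11 (adjusted p = 3.20e-04, limma). Together with Herc6, the ISG15 ligase in mouse, all 4 genes had a smaller response in knockout, with shares kept of 46.6% to 74.2%.

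IFIT proteins bind RNA with foreign ends. The 4 measured members lie within 1 stretch of chromosome 19 (34550694 to 34650009, mm10), and they did not move alike. Ifit1 was at 237, 251 and 262 in wild-type IgG and at 4676, 4564 and 4008 with LGG, and at 153, 129 and 191 against 1409, 1651 and 1447 in knockout. Every LGG library lay above every IgG library in both genotypes. The rise of 17.6-fold in wild type (log2 4.13 ± 0.26) and 9.58-fold in knockout (3.26 ± 0.26) was not called different (-0.87 ± 0.36, adjusted p = 0.0707, limma), although it was called with the 3 libraries that stand apart left out (-0.94, adjusted p = 3.24e-05).

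Ifit2 ran the other way. In wild type it was at 873, 884 and 798 with IgG and at 2288, 2289.7 and 2609 with LGG. In knockout it was at 290.1, 309 and 338 with IgG and at 2017, 1359 and 2509 with LGG. The IgG libraries of the genotypes were well apart, and the LGG libraries overlapped. Ifit2 thus rose 2.81-fold in wild type and 6.08-fold in knockout, a difference in log2 response of 1.11 ± 0.32 (adjusted p = 0.0108, limma) and a share kept of 175%, the highest of the 40. In counts the gains were 1544 and 1649.

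Ifit3 and Ifit3b share much of their sequence: 51.2% of the 50-base stretches of Ifit3 also occur in Ifit3b, so reads could be assigned to either. Their shares kept were 99.2% and 58.5%. Ifit3b rested on few reads, with group means of 8.07 in wild-type IgG and 6.06 in knockout IgG, and its difference between the genotypes was called (-1.74 ± 0.51, adjusted p = 0.0120, limma) while that of Ifit3 was not.

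Oligoadenylate synthetases make the second messenger that switches on RNase L when they meet double-stranded RNA. Oas2 was at 401, 440.0 and 396 in wild-type IgG and at 847, 896 and 891 with LGG, and at 197, 202 and 201 rising to 657, 600.2 and 608 in knockout. The groups did not overlap, and the spread within each was small. Oas2 rose by 1.09 ± 0.07 in wild type and by 1.63 ± 0.07 in knockout on the log2 scale, a called difference of 0.54 ± 0.10 (adjusted p = 2.32e-04, limma), while in counts it gained 465 and 422. Oasl1, a relative without synthetase activity that restrains translation of Irf7, was at 201, 165 and 194 in wild-type IgG and at 4514, 4471 and 4076 with LGG. In knockout it went from 95.2, 95.8 and 85.0 to 823, 957 and 733. It rose in both, and the log2 response was lower in knockout by -1.37 ± 0.27 (adjusted p = 4.12e-04, limma), with a share kept of 69.8%.

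Oas1a and Oas3 lay between, with shares kept of 111% and 98.2% and no interaction called, and Oasl2 kept 86.4%, with a small called difference of -0.29 ± 0.08. Oas1a shares 57.6% of its 50-base stretches with Oas1g, so its count may hold reads of that gene. Per kilobase of exon, Oas1a was the most abundant of the 5 in wild-type IgG, at a mean of 1672 counts per kilobase, and Oasl1 the least, at 84.8. With LGG in wild type Oasl1 reached 1975 per kilobase and Oas1a 3032.

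A further set of products acts on RNA. Eif2ak2 encodes PKR, which halts translation on sensing double-stranded RNA. It was at 926, 1045 and 922 in wild-type IgG and at 1763, 1951 and 2292 with LGG, and it rose by 1.05 ± 0.22 (adjusted p = 5.28e-04, limma). In knockout it was at 779, 725 and 1012 with IgG and at 1231, 810.1 and 1695 with LGG, where replicate 2 fell inside the IgG range. The knockout difference of 0.52 ± 0.22 was not called (adjusted p = 0.0854, limma), and without replicate 2 it was 0.80 and called (adjusted p = 0.00598).

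Dhx58 (LGP2), a helicase of the RIG-I family that tunes the other sensors, was at 579, 583 and 531 in wild-type IgG and at 2538, 2439 and 2249 with LGG. In libraries labelled knockout it went from 391, 408 and 379 to 1099, 1157 and 979.7. The 4 groups did not overlap, and the share kept was 69.5%, with an interaction of -0.64 ± 0.13 (adjusted p = 4.61e-04, limma). Adar, Ddx60 and Isg20 kept 101%, 91.0% and 87.7% with no interaction called. Isg20, a 3′ exonuclease, shows how the scale matters. Its log2 responses were close, 2.25 ± 0.19 and 1.97 ± 0.19, but it gained 1038 counts in wild type and 182 in knockout, because its IgG mean was 277 in wild type and 62.5 in knockout.

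Mx1 and Mx2 belong to a family of dynamin-like GTPases, members of which trap viral nucleocapsids. Whether the transcripts counted here encode working proteins was not tested. Mx1 was at 1117, 1176 and 1071 in wild-type IgG and at 4868, 4764 and 5119 with LGG, and at 430.3, 416 and 414 against 1215, 836 and 1159.5 in knockout. The knockout LGG libraries thus reached about the level of wild-type IgG: the ranges were 836 to 1215 and 1071 to 1176. Mx1 rose 4.38-fold in wild type and 2.51-fold in knockout, a called difference of -0.80 ± 0.24 (adjusted p = 0.0135, limma). Mx2 and the interferon-inducible GTPase Ifi47 also had called smaller responses in knockout, and the 3 genes kept 54.6% to 62.9%. The difference for Ifi47, -0.69 ± 0.22, was not called without knockout LGG replicate 3 (-0.54, adjusted p = 0.0577, limma).

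Among proteins that act on nucleotides and membranes, Rsad2 (viperin) makes a chain-terminating nucleotide. It was at 544, 594 and 593 in wild-type IgG and at 8780.1, 8675 and 8976 with LGG, and went from 394, 313 and 448 to 4409, 3337 and 5072 in knockout. The groups did not overlap. Its log2 response was 3.93 ± 0.13 in wild type and 3.46 ± 0.13 in knockout, and the difference between these, -0.47 ± 0.19, was not called (adjusted p = 0.0635, limma). With the trend of expression on transcript length removed from each library it was -0.51 and called (adjusted p = 0.00843). Cmpk2, a nucleotide kinase encoded next to Rsad2 on chromosome 12 (the pair spans 26442746 to 26479837), was at 366, 386 and 282 in wild-type IgG and at 1584, 1616 and 1844 with LGG. The knockout libraries went from 149, 157 and 156 to 1217, 817 and 1277. Cmpk2 kept 122%, and the difference of 0.52 ± 0.26 was not called (adjusted p = 0.139, limma); without knockout LGG replicate 2 it was 0.72 and called (adjusted p = 0.0251).

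Bst2 (tetherin) holds budding virus at the cell surface and was the most abundant of the 41 per kilobase of exon in all 8 groups. It was at 8088, 7437 and 8529 in wild-type IgG and at 31072, 30523 and 25958 with LGG. In knockout it was at 6632, 6904 and 5493 with IgG and at 10145, 18066 and 8816 with LGG, replicate 2 being far above the others. The share kept was 48.0%, and the interaction of -0.97 ± 0.39 was not called (adjusted p = 0.0611, limma). Without knockout LGG replicate 2 the share was 31.3% and the interaction, -1.28, was called (adjusted p = 0.00825), while the knockout response itself, 0.58, was no longer called (adjusted p = 0.0944). That call was also lost without knockout IgG replicate 3 (0.79, adjusted p = 0.0661). With the length trend removed the share was 58.4%, and both the interaction, -0.67 (adjusted p = 4.43e-05, limma), and the knockout response were called.

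Rtp4, a Golgi chaperone with antiviral activity, was at 1062, 948 and 977 in wild-type IgG and at 2049, 2129 and 1954 with LGG. In knockout it started lower, at 697, 719 and 686, and ended at 1980.4, 2276 and 1781, across the wild-type range. Its log2 response was larger in knockout by 0.48 ± 0.12 (adjusted p = 0.00406, limma), and its gain in counts was also larger, 1312 against 1048. Exons of a predicted gene, Gm45338, hold 11.6% of the 50-base stretches of Rtp4.

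PYHIN proteins sense DNA in the nucleus and cytosol. Ifi205 had the largest rise of the 41 in wild type and the widest gap between the genotypes. It was at 39.2, 38.8 and 41.8 in wild-type IgG and at 4595, 4556 and 4147 with LGG, a rise of 108-fold (log2 6.76 ± 0.20). In knockout it was at 40.4, 60.8 and 34.6 with IgG, around the wild-type values, and at 348, 434 and 299 with LGG, a rise of 7.95-fold (2.99 ± 0.20). The difference was -3.77 ± 0.28 (adjusted p = 2.56e-09, limma), and the knockout gained 7.18% of the counts gained in wild type. Ifi204 started higher in knockout, at 2635, 2793 and 2666 against 2251, 2287 and 2219, and ended lower with LGG, at 3797, 4029.5 and 3857 against 4887, 4843 and 4641. Its share kept was 48.7% (interaction -0.56 ± 0.10, adjusted p = 1.45e-04, limma). Both genes share sequence with Ifi211 (18.5% and 14.8% of their 50-base stretches), so their counts carry that uncertainty. Sp100, a nuclear body protein, kept 56.2%, also with a called smaller response.

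Parp9, Parp12 and Parp14 transfer ADP-ribose or bind it, and Dtx3l is the ubiquitin ligase that pairs with Parp9. Parp9, Dtx3l and Parp14 lie together on chromosome 16 (35832874 to 35972605). Parp9 was at 2186, 2149 and 2273 in wild-type IgG and at 4501, 4673 and 4754 with LGG, and at 1958, 1893 and 2077 against 2675, 2259.6 and 2735 in knockout. Its share kept, 34.1%, was the lowest among genes that passed in both genotypes (interaction -0.71 ± 0.12, adjusted p = 9.96e-05, limma). Parp14 was at 2772, 2933 and 2724 in wild-type IgG and at 8882, 8478 and 9887 with LGG. It went from 1863, 1928 and 2246 to 6005, 4695 and 7329.9 in knockout. Its share kept was 92.3%, and the difference of -0.13 ± 0.20 was not called (adjusted p = 0.669, limma). The sign turned without knockout LGG replicate 2 (0.04), and with the length trend removed the difference was -0.33 and called (adjusted p = 2.90e-04). Parp12 and Dtx3l kept 56.1% and 59.6%, both with called smaller responses. Parp9 and Dtx3l overlap by 367 exonic bases on opposite strands, and whether counting used strand is not stated.

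Trim30a, a TRIM family protein, was at 2083, 2125 and 2042 in wild-type IgG and at 8692, 9110.5 and 9133 with LGG. In knockout it went from 1769, 1745 and 1905 to 3790.0, 2981 and 4243. No groups overlapped between treatments, and the response was lower in knockout by -1.10 ± 0.14 (adjusted p = 4.18e-06, limma; share kept 47.9%). Slfn5, a Schlafen protein, was the noisiest of the 41. It was at 690.1, 744 and 656 in wild-type IgG and at 2117, 2253 and 3449 with LGG, and at 328, 237 and 481 against 1895, 407 and 2982 in knockout, where replicate 2 lay inside the IgG range. It rose in both genotypes (1.87 ± 0.70 and 1.98 ± 0.70, adjusted p = 0.0296 and 0.0365, limma), but each call was lost when some single libraries were left out. In wild type these were any IgG library or LGG replicate 2 or 3, with differences of 1.65 to 1.96. In knockout they were IgG replicate 1 or 2 and LGG replicate 1 or 3, with differences of 1.39 to 1.96. Slfn8 kept 77.3% with no interaction called.

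Of the other 5 genes, Ifi35, a binding partner of Nmi, had the lowest share kept. It was at 1032, 884 and 1241 in wild-type IgG and at 3132, 2963 and 2308 with LGG, and at 947, 1104 and 819 against 1057, 2141 and 901 in knockout. Without replicate 2 the knockout LGG libraries lay inside the IgG range, and the share kept fell from 29.5% to 2.78%. The interaction was -0.996 ± 0.54 (adjusted p = 0.163, limma) with that library and -1.37 (adjusted p = 0.0400) without it. With the length trend removed the share kept was 38.0% and the interaction, -0.80, was not called. Lgals3bp, a secreted glycoprotein, was at 13262, 13200.1 and 13373 in wild-type IgG and at 18170.0, 17231 and 17053 with LGG, and at 15467, 15007 and 14893 against 23614, 24389 and 22916 in knockout. It stood higher in knockout under both treatments. The rise was 1.32-fold in wild type and 1.56-fold in knockout, a difference of 0.25 ± 0.09 (adjusted p = 0.0345, limma), a call that was kept without wild-type LGG replicate 1, knockout IgG replicate 1 or knockout LGG replicate 3 and lost without any of the other 9 libraries of these 4 groups (0.23 to 0.25). Ifi44 and Xaf1 had called smaller responses in knockout, and Phf11d did not differ by the test.

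**Figure D4:**
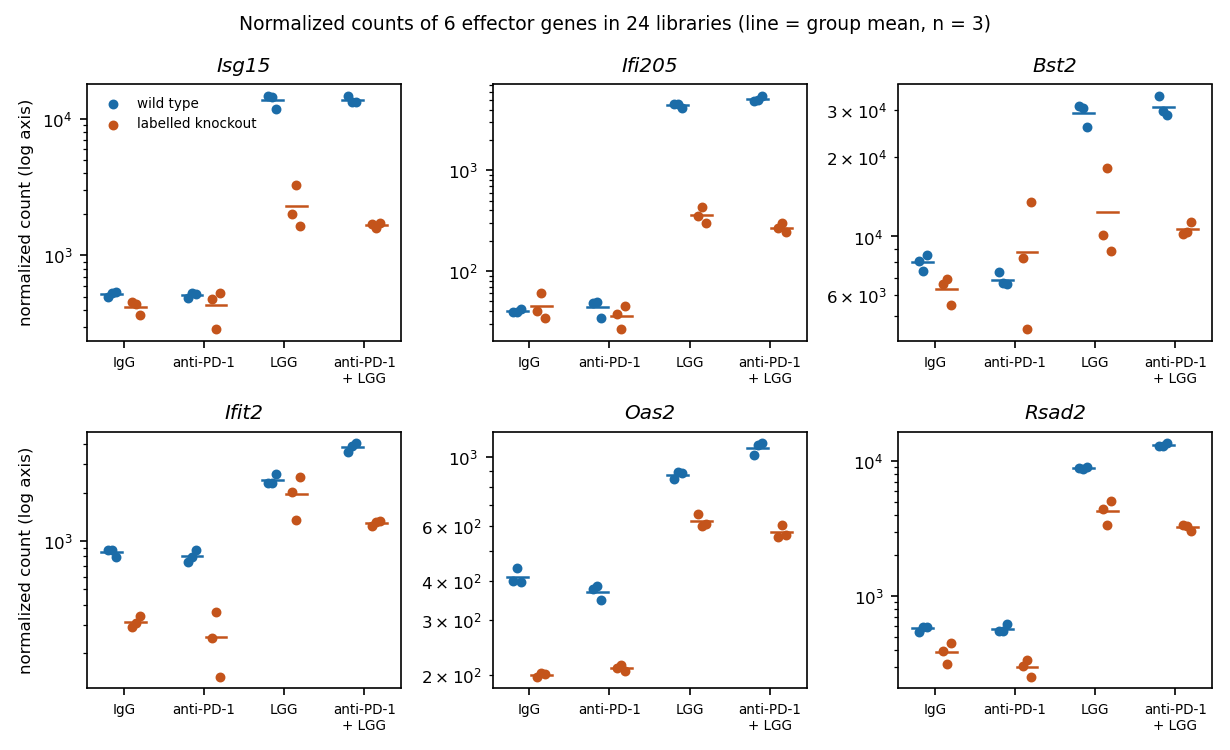
Normalised counts (log axis) of Isg15, Ifi205, Bst2, Ifit2, Oas2 and Rsad2 in all 24 libraries by treatment, for wild type and libraries labelled knockout; lines are group means of 3 libraries. Ifi205 starts near 40 in both genotypes and reaches 4147 to 4595 in wild type against 299 to 434 in knockout with LGG, whereas Ifit2 and Oas2 start lower in knockout.

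How far apart the genotypes were without LGG bears on the shares above. Under IgG, 25 of the 41 genes were lower in knockout and 3 higher (Ifi204, Trim25 and Lgals3bp), with a median difference of -0.53. Of all genes 20% were called lower and 19.1% higher. The largest differences were in Isg20 (-2.16), Oas3 (-1.51), Ifit2 (-1.45) and Mx1 (-1.41). Isg15, Ifi205 and Bst2 were not called different without LGG, at -0.32 ± 0.20, 0.14 ± 0.20 and -0.34 ± 0.27. Isg15 and Bst2 were called lower in knockout with the 3 libraries that stand apart left out, with the length trend removed and with only the libraries compared in the fit; Ifi205 was called in none of these. Under LGG, 33 were lower in knockout and 1 higher (Lgals3bp), with a median of -1.06, against 27% and 28.2% of all genes. Ifit2, Oas1a, Rtp4, Trim25, Samd9l, Phf11d and Slfn5 were not called different there. Without knockout LGG replicate 2, 30 were lower in knockout under LGG and 1 higher, against 26.7% and 28.5% of all genes. Of the 4 genes with a called larger response in knockout, 3 were called lower in knockout under IgG and 1 higher. Of the 20 with a called smaller response, 12 were called lower and 2 higher. The same IgG libraries enter the difference under IgG and the interaction, so these counts are not independent of the interaction calls.

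**Figure D5:**
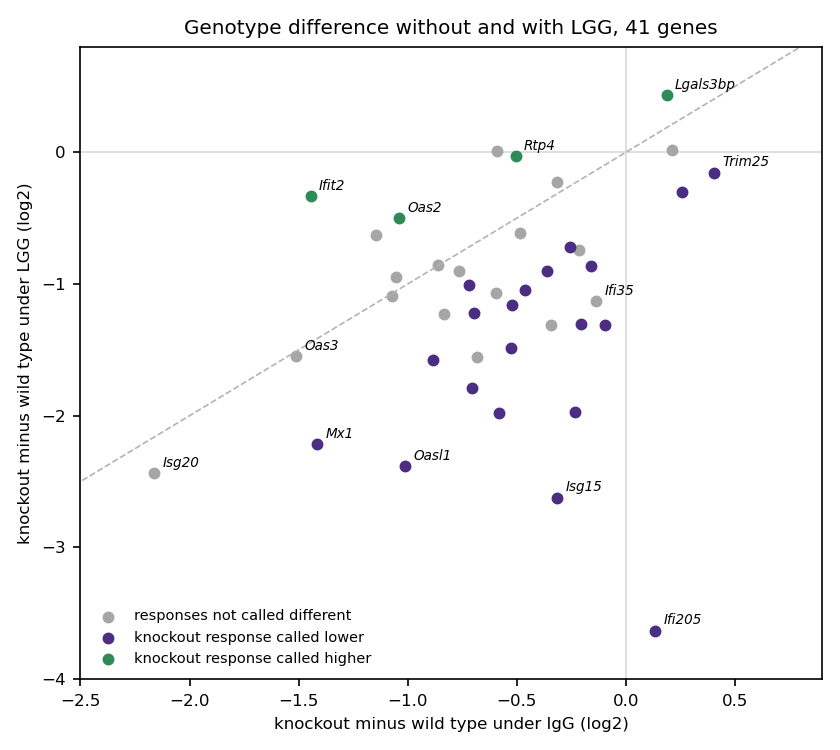
Knockout minus wild type on the log2 scale under IgG (horizontal axis) and under LGG (vertical axis) for the 41 genes, coloured by the interaction call; the dashed line marks an equal difference under both. Ifi205 and Isg15 lie near 0 on the horizontal axis and at -3.63 and -2.62 on the vertical axis, while Ifit2 and Oas2 lie above the line.

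With the combination, too, the effector genes were higher and the responses smaller in knockout. Against anti-PD-1 alone, 40 genes were higher in wild type and 38 in knockout, with no gene lower in either, where 27.7% and 19.7% of all genes were called higher. The responses were called smaller in knockout for 28 and larger for 2 (Rtp4 and Lgals3bp), against 17.2% and 20.5% of all genes, and the median share kept was 55.3%. This comparison shares no library with LGG against IgG. Among the genes named above, Ifit1 (-2.15 ± 0.36), Bst2 (-1.74 ± 0.39), Rsad2 (-1.06 ± 0.19) and Ifi35 (-1.88 ± 0.54) had called smaller responses here (adjusted p = 1.03e-04, 0.00145, 1.92e-04 and 0.00912, limma). All of these rest on knockout anti-PD-1 replicates 2 and 3, which stand apart. Without replicate 2, 28 genes were called smaller and 4 larger (27.5% and 29.5% of all genes), and without replicate 3, 28 and 1 (16.1% and 21.2%). These 4 genes were called smaller both times, Ifit1 at -2.53 and -1.68, Bst2 at -2.16 and -1.35, Rsad2 at -0.96 and -1.16 and Ifi35 at -2.45 and -1.30. The knockout response itself was called higher for 38 genes and lower for 1 without replicate 2 (30.1% and 29% of all genes). Without replicate 3 it was called higher for 39 and lower for none (18% and 13.8%). With the 3 libraries left out, 28 were called smaller and 3 larger (26.4% and 30.3% of all genes), in a fit that leaves 1 knockout anti-PD-1 library and assumes that it varies like the other groups. Against IgG the responses to the combination were called smaller in knockout for 29 genes and larger for none (14% and 19.8% of all genes), with a median share kept of 54.6%. Ifit2 and Oas2, whose responses to LGG alone were larger in knockout, had differences of -0.12 ± 0.32 and 0.14 ± 0.10, neither of them called.

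Anti-PD-1 added to LGG gave small differences of opposite sign in the genotypes, which did not pass the test. In wild type none of the 41 was called different between the combination and LGG (0.0392% of all genes were called higher and 0.0235% lower). The difference was positive for 35, with a median of 0.18, and 10 had an unadjusted p under 0.05. In knockout none was called either (0.0941% and 0.18% of all genes); it was negative for 36, with a median of -0.23, and 13 had an unadjusted p under 0.05. The difference between these differences, a comparison added after the data were seen, was negative for all 41 genes, with a median of -0.42. None was called by limma, where 0.0314% of all genes were called higher and 0.0235% lower, and 20 had an unadjusted p under 0.05. The 41 genes were measured in the same libraries, so like signs across them are not independent evidence. By DESeq2 on whole reads 7 were called lower and by edgeR 2. With the 3 libraries left out 24 were called lower by limma, against 14.6% of all genes, and without knockout LGG replicate 2 alone 5 were, against 0.251%. Ifit2 had the most negative difference between these differences, -1.24 against the median of -0.42. It was at 3581, 3904 and 4054 in the wild-type combination against 2288, 2289.7 and 2609 with LGG alone, and at 1247, 1303 and 1332 in the knockout combination against 2017, 1359 and 2509. The wild-type groups did not overlap, nor did the knockout groups, though knockout LGG replicate 2 lay just above the highest combination library. Rsad2 was at 12956, 12869 and 13440.4 in the wild-type combination and at 3350.4, 3320.3 and 3047 in the knockout combination.

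Anti-PD-1 alone changed few of these genes. In wild type none was called against IgG by limma (0.00784% of all genes were called higher and 0.0235% lower), and 3 had an unadjusted p under 0.05. With edgeR none was called either. In knockout none was higher and Rtp4 alone was lower (1.09% and 0.706% of all genes), at 601, 484 and 524 against 697, 719 and 686, a difference of -0.39. Without knockout anti-PD-1 replicate 2, which leaned towards long genes, 5 were called higher and 11 lower, where 20.3% and 15.7% of all genes were called. Rtp4 was among the 11. Without replicate 3 no effector gene was called in either direction, Rtp4 included (0.431% and 0.416% of all genes).

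The signalling genes upstream were measured in the same libraries. Of 8 interferon ligands sought, 2 were listed, Ifnb1 and Ifng. Ifnb1 (interferon beta) was at 1.09, 0.903 and 2.26 in wild-type IgG and at 63.5, 75.1 and 54.5 with LGG, and at 1.96, 1.17 and 0 against 16.2, 30.7 and 11.1 in knockout. It rose in both genotypes (4.79 ± 0.46 and 3.33 ± 0.46), from a handful of reads. The responses were not called different (-1.45 ± 0.65, adjusted p = 0.0948, limma), but without knockout LGG replicate 2 they were (-1.83, adjusted p = 0.0349). With 8 instead of 1 added to each count they were also called different (-1.40, adjusted p = 6.42e-04, limma). For the combination against anti-PD-1 the responses of Ifnb1 were called different too (-1.99 ± 0.65, adjusted p = 0.0218, limma). Ifng (interferon gamma), whose product induces many of the same genes, rose by 3.88 ± 0.18 in wild type and 2.45 ± 0.18 in knockout, a called difference of -1.43 ± 0.26 (adjusted p = 2.12e-04, limma). Its mean was 937 in wild-type IgG and 13829 with LGG, against 68.6 and 388 in knockout. Ifng was thus lower in knockout LGG than in wild-type IgG. Under IgG it was called lower in knockout (-3.75 ± 0.18, adjusted p = 3.96e-12, limma).

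Of the receptor chains, Ifnar1 rose slightly in both genotypes (0.33 ± 0.09 and 0.45 ± 0.09). Ifnar2 passed in neither (0.32 ± 0.17 and -0.03 ± 0.17). In wild type it was called with only the libraries compared in the fit (adjusted p = 4.49e-04, limma). The same held with the length trend removed (0.35, adjusted p = 0.0424, limma). Of the 8 transcription factors of the pathway, 6 rose in wild type, 6 in knockout, and 5 had a called smaller response in knockout. Among all genes 27.4% rose in wild type and 18.1% in knockout, and 15.4% had a called negative interaction. Irf7, which amplifies interferon transcription, was at 709, 736 and 816 in wild-type IgG and at 10395, 10460.4 and 9212 with LGG, and at 245, 273 and 236 against 1363, 1836 and 1248 in knockout. It was lower in knockout under both treatments, and its response differed by -1.20 ± 0.24 (adjusted p = 5.16e-04, limma).

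Stat2 rose by 1.78 ± 0.11 in wild type and 1.05 ± 0.11 in knockout, and Irf9 by 1.07 ± 0.06 and 0.56 ± 0.06, both with called smaller responses in knockout (adjusted p = 6.83e-04 and 7.31e-05, limma). Irf3, which is controlled mainly by phosphorylation, passed in neither genotype (0.26 ± 0.22 and -0.09 ± 0.22). With only the libraries compared in the fit, Irf3 was called in wild type (adjusted p = 0.0190, limma). With the 3 libraries that stand apart left out, its differences were 0.26 in wild type and -0.35 in knockout. Socs1, which inhibits the receptor kinases, rose in wild type (0.62 ± 0.08) and was at 0.03 ± 0.08 in knockout, a called difference of -0.58 ± 0.12 (adjusted p = 6.64e-04, limma).

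Another list of 46 interferon-induced genes that are not among the 41 had 45 tested. Of these, 38 rose and 2 fell with LGG in wild type, 27 rose and 1 fell in knockout, and the response was called smaller in knockout for 21 and larger for 2. Of all genes 27.4% rose and 28.2% fell in wild type, 18.1% and 14.2% in knockout, and 15.4% had a called negative and 19.5% a called positive interaction. Their median log2 difference was 1.03 in wild type and 0.69 in knockout. Among 15 tested genes of nucleic acid and Toll-like receptor sensing, 5 rose and 5 fell in wild type, and 6 rose and 3 fell in knockout, to be read against the same shares of all genes.

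The share kept was set beside the promoter letters and the length of each gene. Over the 14 genes with the interferon core it ran from 44.3% (Ifi205) to 111% (Oas1a), with a median of 78.1%, and over the 17 others with a promoter entry that rose in wild type from 29.5% to 175%, with a median of 65.7%. Spearman's rho between the share kept and exonic length was 0.21 over 40 genes, 0.40 without knockout LGG replicate 2 and 0.03 with the length trend removed. These are descriptions over genes that share libraries. The order of the genes was similar in the comparison that used other libraries: between the share kept for LGG against IgG and that for the combination against anti-PD-1, rho was 0.87 over 40 genes. Within some clusters of neighbours the values were spread, and within others they were closer. Ifit2 kept 175% and Ifit3b 58.5% within 1 cluster, and Oas2 kept 149.6% and Oas3 98.2% within another on chromosome 5 (120730333 to 120907521). On chromosome 16 Parp9 kept 34.1% and Parp14 92.3%. In the remaining clusters Mx1 and Mx2 kept 62.3% and 62.9%, and Oasl1 and Oasl2 69.8% and 86.4%. Rsad2 and Cmpk2 kept 88.1% and 122%, and Slfn8 and Slfn5 77.3% and 106%.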

How the data were processed

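The 24 libraries were read as RNA-seq counts per gene, which the authors deposited after scaling by library size factors; per the submitters' processing notes the tools were STAR 2.4.0, HTSeq 0.6.1 and DESeq2, with build mm10. The deposited signal is thus a normalised count, and 100% of values were whole reads once divided by the library's step (tolerance 0.001 reads). Values were transformed to log2(count + 1), 12749 genes with a mean of at least 10 were fitted in limma 3.58.1 (R 4.3.3; 8 group means, robust trended variance) and p-values were adjusted by Benjamini-Hochberg over all of them at 0.05. Alternatives were a pseudocount of 8, no filter, TMM scaling, only the libraries compared, DESeq2 1.42.0 and edgeR 4.0.16 on the recovered reads, blocking on replicate number, libraries left out, and, added after seeing the data, removal of a trend with exonic length. The method was tested on simulated counts drawn without a trend with gene length, so that test does not cover libraries that stand apart. The 41 genes and all lists were chosen with earlier results of these data known. Values in every library are given for the 5 genes with the highest and the 5 with the lowest share kept, those with a larger response in knockout, and 1 or more genes per role; other named genes were chosen after their values were seen. Exon lengths and loci come from GENCODE M21 (GRCm38).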

Additional observations from a re-analysis of the deposited data

Results flagged for a closer look

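These results are listed because the response to treatment differed between wild-type libraries and libraries labelled knockout by the interaction test in limma. For LGG against IgG the response was called smaller in knockout for 20 of the 41 effector genes and larger for 4 (15.4% and 19.5% of all genes). For the combination against IgG it was smaller for 29 (14% of all genes). For the combination against anti-PD-1 it was smaller for 28 and larger for 2 (17.2% and 20.5% of all genes).

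By gene, as knockout minus wild type in the log2 response to LGG, the 4 larger responses were those of Ifit2 (1.11), Oas2 (0.54), Rtp4 (0.48) and Lgals3bp (0.25). The widest negative differences were those of Ifi205 (-3.77), Isg15 (-2.31), Ifit3b (-1.74), Mx2 (-1.40), Oasl1 (-1.37), Xaf1 (-1.22), Trim30a (-1.10) and Herc6 (-1.08). Differences between -1 and -0.6 were those of Ifi44 (-0.96), Mx1 (-0.80), Parp9 (-0.71), Ifi47 (-0.69) and Dhx58 (-0.64). The remaining effector genes were Sp100 (-0.58), Trim25 (-0.56), Ifi204 (-0.56), Parp12 (-0.54), Dtx3l (-0.53), Usp18 (-0.46) and Oasl2 (-0.29). Of the signalling genes, Irf7 (-1.20), Stat2 (-0.73), Socs1 (-0.58) and Irf9 (-0.50) were called.

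For the combination against anti-PD-1, Ifit1 (-2.15), Ifi35 (-1.88), Bst2 (-1.74) and Rsad2 (-1.06) were called, although their differences for LGG against IgG were not.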

How the results depend on the processing

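Over the alternatives, 479 counts of effector genes stayed within 1.5 times the reported count and 49 did not; of values for single genes 1703 kept direction and side of the threshold, 50 gained a call, 25 lost one and 13 changed sign. The cause of these changes was not tested. Reported counts of 0, 1 or 2 moved most. With only the libraries compared, wild-type anti-PD-1 against IgG had 4 genes higher and 3 lower, knockout anti-PD-1 0 lower, the wild-type combination against LGG 8 higher, the knockout combination against anti-PD-1 25 higher (reported 38), and the interactions 1 higher for the combination against IgG, 1 higher against anti-PD-1 and 1 lower against LGG. With the 3 libraries that stand apart left out, the LGG interaction had 8 higher, that of the combination against IgG 1 higher and against LGG 24 lower, wild-type anti-PD-1 1 higher and 2 lower, the combination against LGG 16 higher in wild type and 17 lower in knockout, and knockout against wild type under LGG 2 higher. With the length trend removed these were 1 higher for the interaction of the combination against IgG, 8 lower against LGG, and 1 higher in wild type and 5 lower in knockout for the combination against LGG. DESeq2 gave 4 higher in wild type, 2 lower in knockout and 7 lower in the interaction there, and 2 lower for knockout anti-PD-1; edgeR gave 1 lower in knockout and 2 lower in the interaction. A pseudocount of 8 gave 1 lower in knockout, and TMM 1 lower in the interaction. Replicate numbers did not pair libraries (22 of 84 same-numbered pairs correlated above 0.1, and 10 of 24 libraries correlated best with their own number); the replicate block gave 1 lower for the knockout combination against LGG. Leaving out single libraries gave 0 to 5 higher and 0 to 11 lower for knockout anti-PD-1, 0 to 1 lower for the knockout combination against anti-PD-1 and against LGG, 1 to 4 higher in the interaction against anti-PD-1 and 0 to 5 lower against LGG; the highest values came without knockout anti-PD-1 replicate 2 or knockout LGG replicate 2. Signs changed in small differences. Without knockout LGG replicate 2, alone or with the other libraries that stand apart, Ifnar2 in knockout was 0.063, Socs1 -0.052 and the Parp14 interaction 0.035. Without single libraries these ran from -0.085 to 0.063, from -0.052 to 0.10 and from -0.29 to 0.035, Irf3 in knockout from -0.35 to 0.058, and the Slfn5 interaction from -0.48 to 0.96 (-0.029 with the length trend removed).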
